A study of Mus musculus with 8 samples.

Results

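C11 is a cluster of epithelial cells of the lactating mouse mammary gland whose label is lactation alveolar progenitor. Its members were the cells that the authors' annotation placed in subcluster C11 and that passed all of its quality filters, joined to the count matrices by library and barcode. There were 231 such cells among the 25009 of the whole series that could be joined, and all 231 came from the 2 libraries of lactating mice. They made up 142 of 5736 cells in mouse L1, or 2.48% (exact 95% binomial interval 2.09 to 2.91), and 89 of 3583 cells in mouse L2, or 2.48% (1.999 to 3.05). The share was thus the same in both mice within counting error. In all shares given here the interval covers counting error only.

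The series profiled single mammary cells of C57BL/6N females at 4 stages with droplet 10x libraries, 1 library per mouse and 2 mice per stage. The stages were NP, nulliparous at 8 weeks, G, at day 14.5 of pregnancy, L, on lactation day 6, and PI, 11 days after weaning. Cells were sorted for the surface protein EpCAM after immune, endothelial and red cells (CD45, CD31, Ter119), dead cells and doublets had been gated out. The results below use the L libraries, and the G libraries where stated. C11 was described against C14 of the same mice, the cluster of myoepithelial cells that held 80.8% of all cells in L1 and 86.6% in L2. Less full comparisons were made with C9, the differentiated alveolar cells of the same mice (42 and 47 cells), and with C10, the alveolar progenitors of gestation (89 and 126 cells). The labels name no genetic modification or treatment.

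Milk is made by luminal alveolar cells, which secrete caseins, whey proteins and fat into the lumen under prolactin, acting through the receptor Prlr and the transcription factor Stat5. Elf5, an ETS factor of the luminal lineage, is required for this secretory programme, while Kit, a receptor tyrosine kinase, and Aldh1a3, a retinaldehyde dehydrogenase, mark luminal progenitors. Myoepithelial cells lie around the alveoli, carry the basal keratins Krt5 and Krt14 with smooth muscle actin (Acta2), and contract upon oxytocin to eject the milk.

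Levels are given as CPM, that is, UMIs (unique molecular identifiers, 1 per captured transcript) of a gene summed over the cells of a cluster in a mouse, per 1000000 UMIs of all genes in that sum. The C11 sums held 1081043 UMIs in L1 and 850646 in L2, so that 3 UMIs correspond to 2.78 and 3.53 CPM. Median UMIs per C11 cell were 6691 in L1 (range 1784 to 24897) and 8065 in L2 (2050 to 57585), against 3701 and 4148 in C14. C11 cells held a median of 2002.5 and 2216 detected genes against 1471 and 1605.5 in C14, and 0.342% and 0.468% mitochondrial UMIs against 0.686% and 0.881%. C11 cells were therefore the deeper and the lower in mitochondrial RNA in both mice. Clusters were drawn by the authors from these same counts, so differences between C11 and another cluster are described in each mouse and carry no test. With 2 mice, an exact paired permutation test cannot go below p = 0.5. A gene was called when it stood at least 2-fold apart in the same direction in both mice, among genes at 20 CPM or more in both mice in either cluster. In sums over cells, more expressing cells and more RNA per cell cannot be told apart.

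The 4 label genes were all present in C11. *Elf5* stood at 727 CPM in L1 and 637 CPM in L2, against 4.69 and 3.37 CPM in C14. *Aldh1a3* stood at 586 and 968 CPM, against 2.04 and 2.11 CPM in C14 and 73.4 and 6.74 CPM in C9. *Kit* stood at 120 and 112 CPM, against 1.09 and 0.542 CPM in C14 and 26.2 and 28.3 CPM in C9. *Aldh1a3* and *Kit* were thus higher in C11 than in C14 or C9 in both mice. *Elf5* was clear of C14 but close to its C9 level of 468 and 481 CPM, and its order against C9 reversed with edgeR's TMM scaling. Over the whole luminal progenitor list, 5 of 7 genes were higher than in C9 in CPM, beside 28.3% of all genes tested. With TMM or DESeq2 scaling 3 of 8 were higher and 2 lower. Among all 3981 genes tested with TMM, 251 were higher and 167 lower. *Lcn2*, for example, stood at 2998 and 2124 CPM in C11 and 4199 and 5964 CPM in C9. After thinning each cell to 2000 UMIs, which left out 5 C11 cells of L1 and none of L2, an *Elf5* UMI was found in 67.9% of C11 cells in L1 (59.4 to 75.6) and 68.5% in L2 (57.8 to 78.0), compared with 92.3% and 93.3% without thinning. Thinned shares for *Elf5* in the immune cluster C17 of the same libraries, whose median depth was 5256 and 5416 UMIs, were 1.93% and 0.65%. *Aldh1a3* was found in 49.6% and 69.7% of thinned C11 cells (70.4% and 85.4% without thinning) and *Kit* in 21.9% and 22.5% (48.6% and 51.7%), against at most 0.48% for either gene in C17.

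Of the 8 milk protein genes, 6 were at least 2-fold higher in C11 than in C14 in both mice and none was lower, where 11.3% of 5700 genes tested were called higher and 32.1% were called in either direction. The list's median log2 difference was 5.47, beside -0.21 for all genes tested. *Csn2* (beta-casein) reached 25702 CPM in L1 and 20408 CPM in L2, which is 77.3-fold and 63.5-fold the C14 level. *Csn1s2a* stood at 24238 and 18156 CPM, *Csn3* (kappa-casein) at 14399 and 13733 CPM, and *Csn1s1* at 6647 and 5473 CPM. *Lalba*, the alpha-lactalbumin subunit of lactose synthase, was at 438 and 348 CPM against 5.63 and 8.12 CPM in C14. Together the 8 genes made up 7.21% of all C11 UMIs in L1 and 5.92% in L2. The same sum was 44.8% and 41.7% in C9 and 0.181% and 0.212% in C14, which places C11 between these clusters in both mice, with no overlap.

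The milk proteins were not scaled down by 1 factor from C9 to C11. *Csn3* in C11 was 55.5% of its C9 level in L1 and 60.5% in L2, the highest ratio of the list in both mice. *Wap* (whey acidic protein) was at 241 and 681 CPM in C11 against 91754 and 101975 CPM in C9, a ratio of 0.263% and 0.667% and the lowest of the list. *Csn1s2b* was at 426 and 153 CPM against 27852 and 20487 CPM in C9. These last genes were also the ones not called against C14, where *Wap* stood at 323 and 392 CPM and *Csn1s2b* at 513 and 679 CPM. A *Wap* UMI was found in 31.4% and 42.7% of thinned C11 cells (64.8% and 77.5% without thinning) but also in 44.9% and 48.0% of C14 cells and in 30.9% and 32.5% of C17 cells. In L1 the share and the level (232 CPM in C17) were thus near those of the immune cluster, and the source of this *Wap* RNA was not tested. In L2 the share was above that of C17 but not that of C14, and the level was above both, at 181 CPM in C17. For *Csn3* the thinned shares were 99.3% and 89.9% in C11 against 11.1% and 9.09% in C17, and for *Csn2* 88.3% and 76.4% against 40.1% and 28.6%. *Glycam1*, at 55.5 CPM in L1 and 246 CPM in L2, was uneven over cells: 1 cell held 68.3% of its C11 UMIs in L1. In L2, 1 cell likewise held 58.7% of the *Wap* UMIs of C11.

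**Figure D1:**
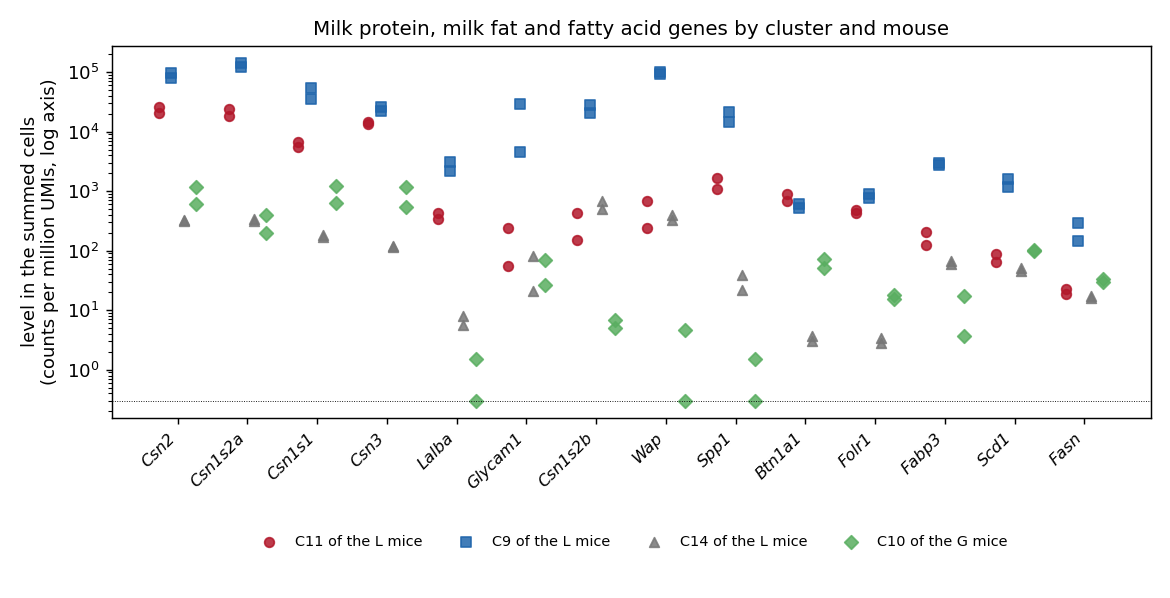
Levels in CPM (log axis) of milk protein, milk fat and fatty acid genes in C11, C9 and C14 of the L mice and C10 of the G mice, 1 point per mouse, with a level of 0 drawn on the dotted line. Among the milk proteins *Csn3* lies closest to its C9 level, whereas *Wap* lies farthest from it.

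Promoter windows of *Csn2*, *Csn1s1* and *Wap* are shown because these genes lay far apart in C11, the 2 caseins at 5473 CPM or more and the whey gene at 681 CPM or less in each mouse. Capitals mark the letters TTCNNNGAA, the core searched on both strands as a STAT-type element. The sequences are RefSeq promoters of build GRCm38, covering bases 130 to 51 before the RefSeq start and read along the gene: chr5:87699476-87699555 (minus strand), chr5:87666078-87666157 (plus) and chr11:6638700-6638779 (minus).
Csn2: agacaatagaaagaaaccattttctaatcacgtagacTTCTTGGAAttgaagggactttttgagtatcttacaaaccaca
Csn1s1: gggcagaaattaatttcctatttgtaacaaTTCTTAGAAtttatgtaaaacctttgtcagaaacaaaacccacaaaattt
Wap: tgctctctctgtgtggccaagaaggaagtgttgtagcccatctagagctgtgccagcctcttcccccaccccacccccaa
Among the milk protein genes with a RefSeq promoter, 3 of 6 held these letters in the 250 bases before the start (*Csn2*, *Csn1s1* and *Glycam1*), compared with 2306 of 32851 promoters, or 7.02%. The palindromic core reads alike on both strands. A match describes letters only, and its absence in *Wap* holds for this window only. *Glycam1*, which held the letters, stood at 55.5 CPM in L1 and 246 CPM in L2. A link between these letters and the level was not tested.

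Genes of milk fat secretion were higher in C11 than in C14 for all 10 that passed the level filter of 11 in the files. Their median log2 difference was 2.65, and 11.3% of all genes tested were called higher. *Btn1a1* (butyrophilin, a protein of the milk fat globule membrane) stood at 895 CPM in L1 and 696 CPM in L2, against 3.69 and 3.01 CPM in C14. It was near the C9 level of 603 and 528 CPM, above it in CPM and below it with TMM scaling. *Cidea*, a lipid droplet protein, was at 177 and 115 CPM in C11, below 1114 and 712 CPM in C9. *Fabp3*, a fatty acid binding protein, was at 127 and 209 CPM against 2968 and 2772 CPM, and *Lpl* (lipoprotein lipase) at 29.6 and 21.2 CPM against 432 and 392 CPM. Against C9 none of the 10 was called higher, and 4 were lower in CPM (*Cidea*, *Cd36*, *Fabp3*, *Lpl*) or 6 with TMM scaling. In CPM, 28.3% of all genes tested were higher than in C9 and 1.41% lower. *Folr1*, the folate receptor, and *Aqp5*, a water channel, both stood far above C14. *Folr1* was at 480 and 435 CPM in C11 and 907 and 779 CPM in C9, while *Aqp5*, at 379 and 320 CPM, exceeded its C9 level of 110 and 99.7 CPM. With TMM, DESeq2 or a total without milk, *Aqp5* was not called higher than in C9.

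Fatty acid synthesis genes differed less from the basal cells. Of 10 that passed the filter, 3 were higher in C11 than in C14 (*Thrsp*, *Olah*, *Me1*) and 1 was lower (*Scd2*). Of all genes tested, 11.3% were higher and 20.8% lower, so the count is not read as a result about the list. *Olah*, the thioesterase that releases medium-chain fatty acids in the gland, stood at 66.6 CPM in L1 and 56.4 CPM in L2 against 2.27 and 1.38 CPM. *Fasn* (fatty acid synthase) was at 23.1 and 18.8 CPM in C11, 17.6 and 15.8 CPM in C14 and 297 and 147 CPM in C9. Only C9 stood apart for this gene. *Scd1*, a fatty acid desaturase, was at 63.8 and 87.0 CPM in C11 and 1191 and 1594 CPM in C9.

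Luminal and progenitor genes set C11 apart from C14, where 11.3% of 5700 genes tested were called higher and 20.8% lower. Of 6 luminal keratin and junction genes 4 were called higher, among them *Krt18* with 2302 CPM in L1 and 4167 CPM in L2 against 208 and 184 CPM. Of the 10 tight junction genes 7 were higher and none lower, with a median log2 difference of 6.08. *Cldn3* stood at 1157 and 1180 CPM against 7.95 and 7.58 CPM, and *Cldn4* at 542 and 1335 CPM against 2.13 and 5.66 CPM. These claudins seal the luminal epithelium. Of 8 luminal progenitor genes that passed, 6 were higher (*Aldh1a3*, *Kit*, *Cd14*, *Tspan8*, *Lcn2*, *Ltf*) and *Creb5* was lower. Of 8 secretory transcription factors, 5 were higher (*Elf5*, *Ehf*, *Elf3*, *Stat5b*, *Xbp1*) and none lower. *Ehf*, an ETS factor, stood at 410 and 447 CPM against 1.66 and 1.57 CPM. *Elf3*, also of the ETS family, was at 177 CPM in L1 and 604 CPM in L2, so it differed between the mice, though both values were above 9.32 and 10.4 CPM in C14.

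The prolactin and Stat5 list gave 3 genes higher and 1 lower than C14 among 9 that passed, beside 11.3% higher and 20.8% lower of all genes tested. *Prlr* stood at 39.8 CPM in L1 and 55.2 CPM in L2 against 1.23 and 0.842 CPM, and the cyclin gene *Ccnd1* at 277 and 469 CPM against 36.2 and 27.9 CPM. *Socs3*, an inhibitor of cytokine signalling, was lower in C11, at 426 and 376 CPM against 2448 and 2568 CPM. *Stat5a*, at 37.9 and 27.0 CPM against 17.3 and 18.2 CPM, did not reach 2-fold in L2. Notch genes divided by role: the receptor *Notch1* and the target genes *Hes1*, *Hey1* and *Hes6* were higher in C11, and the ligands *Dll1*, *Jag1* and *Jag2* were lower. *Hey1* was at 129 and 68.2 CPM against 6.63 and 5.54 CPM, and *Dll1* at 23.1 and 16.5 CPM against 158 and 144 CPM. *Pgr* and *Esr1*, the receptors that define hormone-sensing cells, were at or under 5.88 CPM in C11 in both mice. The hormone-sensing list as a whole was not absent, with a sum of 1887 and 2525 CPM. Most of it was *S100a6*, at 1783 and 2459 CPM, which was lower than in C14 (6397 and 6613 CPM), while *Ly6a* was higher than in C14, at 70.3 and 42.3 CPM against 24.3 and 7.46 CPM.

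Genes of mucosal defence were among the most abundant of C11. Of 11 genes that passed, 8 were higher than in C14 and 2 were lower, beside 11.3% higher and 20.8% lower of all genes tested. The lower ones were *Mt1* and *Mt2*, metallothioneins so closely related that the split of reads between them is uncertain. *Wfdc18*, a secreted protein with a whey acidic protein domain, was the gene with the highest mean level in C11, at 42676 CPM in L1 and 55447 CPM in L2 against 250.5 and 440 CPM in C14. *Ltf*, the iron-binding milk protein lactotransferrin, reached 13188 and 15636 CPM in C11, 40.7 and 39.4 CPM in C14 and 2889 and 3386 CPM in C9. It was 4.57-fold and 4.62-fold higher in C11 than in the differentiated cells in CPM, and stayed above 2-fold with the other scalings tried. *Muc15*, a membrane mucin of the fat globule, stood at 2325 and 2485 CPM against 1193 and 925 CPM in C9, and was not called against C9. *Spp1* (osteopontin) was at 1672 and 1104 CPM, but 1 cell held 63.6% of its C11 UMIs in L1 and 74.9% in L2.

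The remaining lists differed less in direction. Genes of lactose synthesis and transport gave 2 higher and 2 lower among 9, and antigen presentation genes 2 higher and none lower among 8. Of all genes tested, 32.1% were called in either direction, so these counts are not read as results about the lists. Of 8 acute phase and involution genes 5 were higher and 2 lower than in C14. *Igfbp5*, a binding protein of insulin-like growth factors, was one of the higher, at 1244 CPM in L1 and 1218 CPM in L2 against 275 and 207 CPM. The epidermal growth factor family divided by member. The receptor *Erbb3* stood at 24.1 and 34.1 CPM against 0.994 and 0.602 CPM, while the receptor *Egfr* stood at 12.03 and 21.2 CPM against 61.3 and 74.7 CPM and the ligand *Nrg1* at 72.1 and 52.9 CPM against 406 and 397 CPM. Among the abundant genes outside the lists, *Apod*, a secreted lipocalin, was at 8136 and 4474 CPM in C11 and 35.5 and 20.4 CPM in C14. Among the genes farthest below C14 were *Bdnf*, a neurotrophin, at 51.8 and 44.7 CPM against 481 and 453 CPM, and *Irx4*, a homeobox factor, at 9.25 and 7.05 CPM against 82.4 and 77.4 CPM.

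To find genes particular to C11 by level, each gene at 50 CPM or more in C11 in both mice (2120 genes) was set against the 33 other sums of clusters C1 to C15 with 20 or more cells, over all stages. In 13 genes the lower C11 mouse was at least 2 times the highest of these sums. This rule used CPM only, where the milk UMIs of C9 count in its total, and was not repeated with other scalings. For *Tob1*, *BC016548* and *Sdf2l1* the highest of these sums was a C9 sum, at ratios of 2.64, 2.63 and 2.63. Whether these 3 genes would pass with another scaling was not tested. They are a description, since the clusters were built on the same genes. *2310057J18Rik*, a protein-coding gene (ENSMUSG00000015519) at chr10:28972288-28986303 on the minus strand of GRCm38, stood farthest from the rest. It was at 1149 CPM in L1 and 1468 CPM in L2, while the next sum was 5.24 CPM (3 UMIs, C9 of L1). Its UMIs lay in 45 of 142 and 37 of 89 C11 cells, and the 10 cells with most held 77.0% and 88.0% of them. After thinning it was found in 25.5% and 27.0% of C11 cells against 0.41% and 0.39% of C14 cells. The gene therefore marked a subset of C11 cells in both mice.

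Among the other 12 genes, the tissue kallikreins *Klk10* (193 CPM in L1, 277 CPM in L2) and *Klk13* (114 and 113 CPM) are secreted serine proteases, and their relatedness leaves their assignment of reads uncertain. In C9, *Klk10* stood at 38.4 CPM in L1 and had no UMI in L2. The chemokine *Ccl6* was at 270 and 466 CPM against 2.18 and 1.81 CPM in C14, and *Ccl9*, its close relative, at 105 and 128 CPM against 1.56 and 1.504 CPM. These chemokines are close paralogs, so reads may be split between them, and myeloid cells make them too. The immune cluster C17 held up to 88.3 CPM of *Ccl6* and 179 CPM of *Ccl9*. The remaining genes were *Apol7a* (175 and 170 CPM, one of a family of close copies), *BC016548*, *Tob1*, which encodes an antiproliferative protein, the carbonyl reductases *Cbr2* and *Dcxr*, and *Ltf*, *Hspa5* and *Sdf2l1*. *Tob1* was at 706 and 705 CPM in C11 and 232 and 267 CPM in C9, with close values in the 2 mice.

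**Figure D2:**
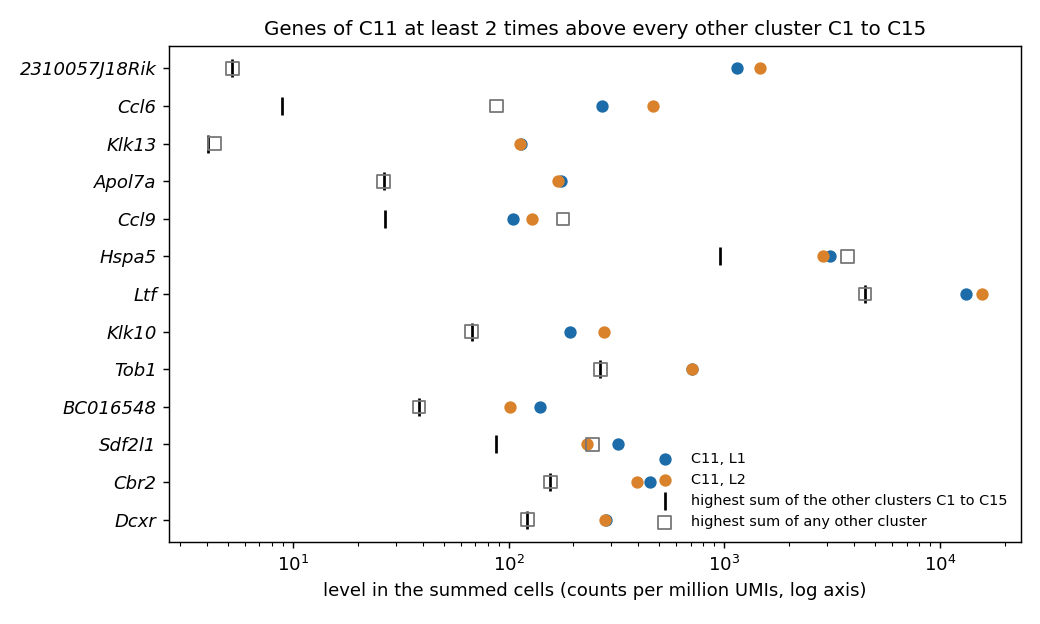
Levels in CPM (log axis) of the 13 genes whose lower C11 mouse was at least 2 times any other sum of clusters C1 to C15, with 1 dot per C11 mouse, a tick for the highest of those sums and an open square for the highest sum of any other cluster. *2310057J18Rik* shows the widest gap, and for *Ccl9* and *Hspa5* the square, from the immune cluster C17, lies above both C11 dots.

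Genes of the endoplasmic reticulum, which folds and glycosylates secreted proteins, were higher than in C14 for 9 of 14 and lower for none. Their median log2 difference was 1.48, and 11.3% of all genes tested were called higher and 20.8% lower. *Hspa5*, the chaperone BiP, stood at 3090 CPM in L1 and 2859 CPM in L2, against 398 and 366 CPM in C14 and 674 and 639 CPM in C9. In CPM the C11 values exceeded those of the milk-rich C9 cells as well, by 4.58-fold and 4.48-fold. In CPM the list had 8 genes higher and none lower than C9, beside 28.3% and 1.41% of all genes tested. TMM, DESeq2 and a total without milk shift the median of all genes against C9 by -0.76, -0.82 and -0.72 on the log2 scale. With these the list had 4 higher and 1 or 2 lower, and *Hspa5* stayed above 2-fold. *Hsp90b1*, a folding chaperone, was at 952 and 906 CPM, *Calr* (calreticulin) at 1110 and 873 CPM, and the disulfide isomerase *Pdia6* at 365 and 242 CPM. *Canx* (calnexin), at 265 and 221 CPM, did not stand apart from its 262 and 268 CPM in C14. *Sdf2l1*, a cofactor of BiP, stood at 321 and 230 CPM against 13.6 and 15.9 CPM in C14. *Xbp1*, a transcription factor of the unfolded protein response, was at 412 and 282 CPM in C11 and 447 and 362 CPM in C9.

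Promoter windows of 4 of these chaperone genes are given because the same long element stands in each. Capitals mark the endoplasmic reticulum stress element, CCAAT followed after 9 bases by CCACG, searched on both strands. It appears as its reverse complement in *Calr* and *Hsp90b1*. The RefSeq windows of 60 bases (GRCm38, read along the gene) are chr2:34772000-34772059 (plus), chr12:17266469-17266528 (plus), chr8:84847052-84847111 (minus) and chr10:86705505-86705564 (minus). They begin 90, 120, 180 and 120 bases before the RefSeq start, in that order.
Hspa5: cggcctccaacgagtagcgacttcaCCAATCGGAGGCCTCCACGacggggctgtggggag
Pdia6: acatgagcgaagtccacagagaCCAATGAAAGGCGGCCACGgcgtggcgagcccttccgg
Calr: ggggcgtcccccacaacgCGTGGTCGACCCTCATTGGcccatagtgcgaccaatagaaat
Hsp90b1: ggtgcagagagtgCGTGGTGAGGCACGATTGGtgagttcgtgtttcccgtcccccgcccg
The element was found in 5 of the 12 listed genes with a promoter, the fifth being *Canx*, compared with 37 of 32851 promoters, or 0.113%. *Canx* was not called against C14. None of the 6 milk protein promoters held it.

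Transcripts of basal cells were found in C11. All 18 basal and contractile genes were called lower in C11 than in C14, where 20.8% of genes tested were called lower, and their median log2 difference was -2.95. *Krt14* stood at 852 CPM in L1 and 769 CPM in L2, against 4878 and 5442 CPM in C14. *Acta2* stood at 3659 and 2439 CPM against 26577 and 22787 CPM. Both genes were thus far under C14 but far from 0. Over the 18 genes, the C11 level as a share of the C14 level of the same mouse had a median of 14.1% in L1, from 11.5% (*Tagln*) to 19.1% (*Krt15*). In L2 the median was 11.7%, from 10.4% (*Vim*) to 15.4% (*Tpm1*). The basal genes therefore stood in nearly 1 ratio to C14. The same median was 5.84% and 3.38% in C9 and 28.4% and 8.88% in the immune cluster C17.

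Counted per cell, the basal transcripts were unevenly spread. The 18 genes made up a median of 0.5002% of a C11 cell's UMIs in L1 and 0.356% in L2, close to the 0.409% and 0.2997% of C9 cells. C14 cells had medians of 10.8% and 9.53%, and no C14 cell was under 2.11%. Beside this low level, 30 of 142 C11 cells in L1, or 21.1% (14.7 to 28.8), and 13 of 89 in L2, or 14.6% (8.01 to 23.7), stood at or above 1.5%. Only 4 and 3 cells lay between 1 and 2%, the neighbourhood of this limit, which was chosen after the values were seen. In C9, 2 of 42 cells and 0 of 47 cells stood above it (the latter allows a share of up to 7.55% by the exact interval). In C17 the number was 62 of 212 in L1 (29.2%) and 9 of 156 in L2 (5.77%). Whether these C11 barcodes held more than 1 cell was not tested, and no doublet caller was run.

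The C11 cells at or above 1.5% were deeper and higher in mitochondrial share in both mice. Their median UMI total was 10000 in L1 and 10926 in L2, against 6205 and 7428 below the limit, and their median mitochondrial share 0.460% and 0.696% against 0.296% and 0.431%. *Acta2*, one of the genes that set the limit, stood at 10070 and 9992 CPM above it and 1057 and 665 CPM below it, and *Krt14*, also one of them, at 2252 and 2676 CPM against 284 and 321 CPM. The luminal gene *Elf5*, which was not used for the limit, was at 506 and 297 CPM above and 817 and 717 CPM below. *Ltf* likewise stood at 6953 and 4894 CPM above and 15719 and 18160 CPM below, whereas *Mt1* was at 9820 and 10103 CPM above and 2402 and 2159 CPM below. Without the cells at or above 1.5%, which were picked by the same basal genes, the mean over both mice of the median ratio to C14 was 4.04% in place of 12.9%. *Krt14* then stood at 5.81% and 5.90% of its C14 level.

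**Figure D3:**
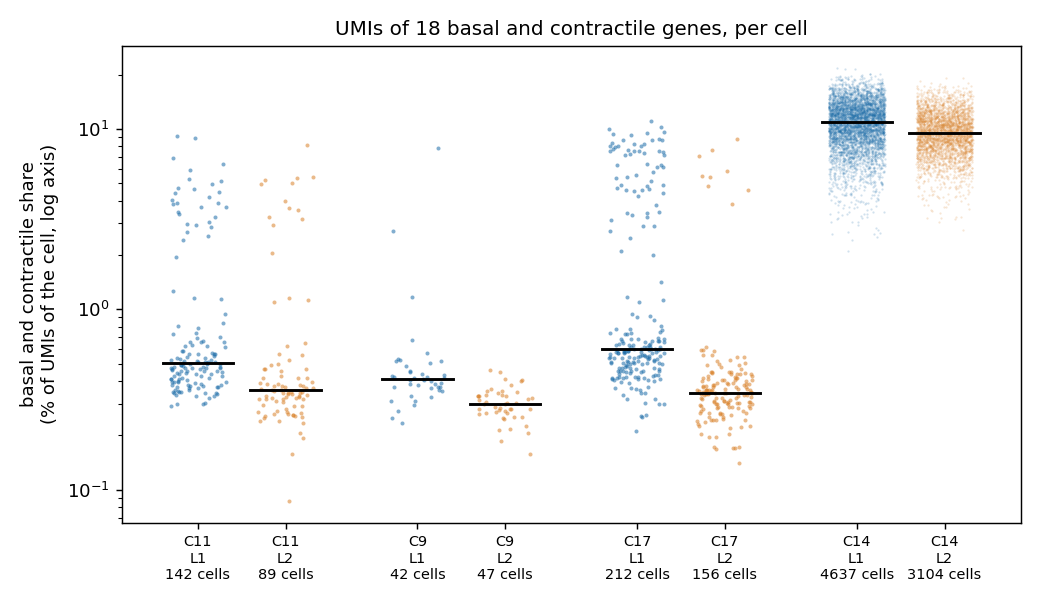
Share of each cell's UMIs that fell on the 18 basal and contractile genes, in percent on a log axis, with 1 dot per cell of C11, C9, C17 and C14 in mice L1 and L2 and a bar at each median. Most C11 cells lie at the C9 level, and 30 and 13 of them lie at or above 1.5%, reaching into the lower range of C14.

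Shares of C11 cells with a *Krt14* or *Acta2* UMI did not stand above those of the immune cluster C17 in both mice. At 2000 UMIs, *Krt14* was found in 51.1% and 59.6% of C11 cells (82.4% and 88.8% without thinning), in 61.4% and 41.6% of C17 cells and in 51.2% and 27.7% of C9 cells. *Acta2* was found in 90.5% and 68.5% of C11 cells (99.3% and 94.4% without thinning) and in 92.8% and 79.2% of C17 cells. In L2 *Krt14* in C11 was above C17 and C9, in L1 it was above neither, and *Acta2* was under C17 in both mice. Endothelial and erythroid markers were near 0, and those of other lineages were low but present. Summed over their lists, endothelial genes stood at 19.4 and 4.70 CPM in C11 and erythroid genes at 0.925 and 1.18 CPM. The 10 immune genes were at 376 and 270 CPM, mostly *Cd74* with 290 and 228 CPM, against 172 and 147 CPM in C14 and 42930 and 60167 CPM in C17. The 8 fibroblast genes were at 135 and 71.7 CPM, below the 672 and 517 CPM of C14. The 9 pericyte genes were at 166 and 128 CPM against 247 and 151 CPM in C14, of which *Anpep*, at 87.0 and 88.2 CPM, was called higher than in C14 and C9. The 8 adipocyte genes were at 92.5 and 20.0 CPM against 384 and 194 CPM in C14. Of the 12 genes induced by tissue dissociation, none was called in either direction against C14. Against C9, 6 were higher in CPM but 0 with TMM or DESeq2 scaling, and against C10, 4 were higher in CPM and 7 with either scaling. In CPM, 28.3% of all genes tested were higher than in C9 and 8.62% than in C10.

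C11 cells varied widely in milk content. The 8 milk protein genes made up a median of 4.09% of a cell's UMIs in L1, from 0.072% to 26.9%, and 2.26% in L2, from 0.026% to 30.1%. Values in C9 had medians of 38.4% and 34.6% and began at 12.2% and 7.46%, so the upper end of C11 overlapped the lower end of C9. C14 cells had medians of 0.149% and 0.162%, and the lowest C11 cells overlapped them.

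**Figure D4:**
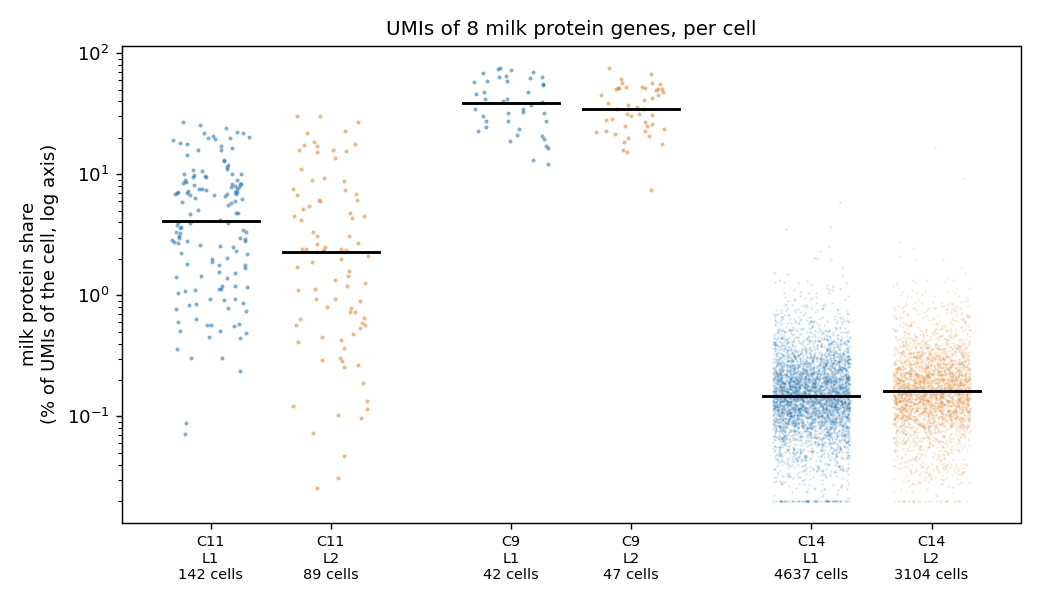
Share of each cell's UMIs that fell on the 8 milk protein genes, in percent on a log axis, with 1 dot per cell of C11, C9 and C14 in mice L1 and L2 and a bar at each median; cells under 0.02% are drawn at 0.02%. C11 cells fill the range between C14 and C9, with medians of 4.09% in L1 and 2.26% in L2.

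When C11 cells of each mouse were ordered by milk share and divided into 4 bins of 35 or 36 cells in L1 and 22 or 23 in L2, other genes changed along the order. The levels that follow leave the milk UMIs out of the total. *Aldh1a3* fell from 1033 CPM in the lowest bin to 164 CPM in the highest in L1, and from 1238 to 344 CPM in L2. *Kit* went from 180 to 95.4 CPM and from 162 to 79.0 CPM, and *Ccl6* from 516 to 34.3 CPM and from 756 to 22.6 CPM. *Elf5* did not follow them, at 622 and 832 CPM in the outer bins of L1 and 454 and 857 CPM in those of L2. Of secretory genes not used for the order, *Folr1* went from 221 to 843 CPM and from 151 to 948 CPM. *Cidea* went from 25.1 to 370 CPM and from 16.8 to 372 CPM. *Wfdc18* and *Ltf* did not rise in both mice. *Wfdc18* stood at 41269 and 43607.5 CPM in the outer bins of L1 and 62434 and 40028 CPM in those of L2. *Ltf* stood at 10003 and 12317 CPM and at 12658 and 11338 CPM. The lowest bins held only 5 and 3 *Cidea* UMIs, and the highest only 9 and 4 *Ccl6* UMIs. *Hspa5* peaked in the third bin in both mice, at 5602 and 4555 CPM, against 1539 and 868 CPM in the lowest. Median UMI totals also differed along the order in L1, from 4204 in the lowest bin to 8452.5 in the highest, but less in L2 (7476 and 8355). The part of depth in these trends was not tested.

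**Figure D5:**
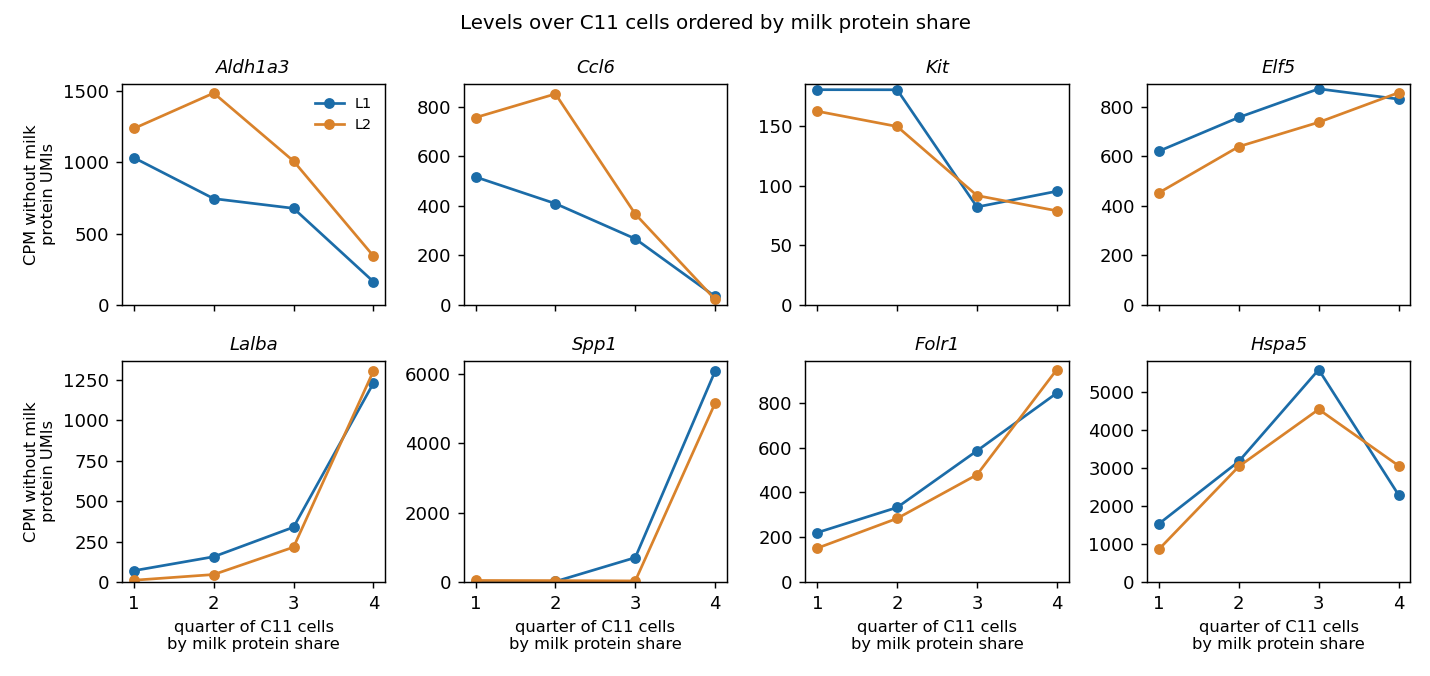
Levels in CPM with milk protein UMIs left out of the total (linear axes from 0), over 4 bins of C11 cells ordered from low to high milk share, 1 line per mouse. *Aldh1a3* and *Ccl6* end low and *Folr1* ends high in both mice, while *Hspa5* is highest in the third bin; *Lalba* is itself a milk protein gene used for the order.

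Correlations between genes over single C11 cells (142 and 89 cells, log scale after scaling each cell to 10000 UMIs) described the same pattern. The cells of a mouse share a library and differ in depth, and no p is given. *Csn2* and *Csn1s2a* were related with r = 0.70 in L1 and 0.80 in L2, and *Ltf* and *Wfdc18* with 0.69 and 0.73. *Csn1s2a* ran opposite to *Aldh1a3*, with r = -0.54 and -0.52, and to *Ccl6*, with -0.41 and -0.42. *Csn3* and *Hspa5* were related with 0.40 and 0.53. *Krt14* and *Acta2* gave 0.62 and 0.67.

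Against C9, the direction of many genes in C11 depended on the scale. Since milk protein RNA took up 44.8% and 41.7% of C9 UMIs, 28.3% of 4459 genes tested were higher in C11 and 1.41% were lower in CPM (1263 and 63 genes, 95.2% of calls higher), and the median of all genes was 0.93 on the log2 scale. With edgeR's TMM library sizes that median shifted by -0.76 and 251 genes were higher and 167 lower (60.0% higher). DESeq2 size factors gave 220 and 200 (52.4%), and a total without milk UMIs gave 300 and 203 (59.6%). On the CPM scale, against the 29.7% of all genes called, 7 of 8 milk protein genes were lower in C11 (*Csn3* was not called), and 8 of 8 with DESeq2 size factors. Of 11 fatty acid synthesis genes 8 were lower in CPM and 11 with TMM, DESeq2 or the total without milk. The 15 of 17 basal genes called higher in CPM fell to 0 under each of these scalings, as did the 5 luminal keratin genes under TMM and DESeq2. *Hspa5* and *Ltf* were above 4-fold in CPM, more than the shift of the median. The genes with the largest difference from C9 were *2310057J18Rik*, *S100g* and *Ly6d* among those higher and *Pip*, *Wap* and *Glycam1* among those lower. *S100g*, a calcium-binding protein, stood at 1018 CPM in L1 and 3156 CPM in L2 against 6.99 and 9.43 CPM in C9, and *Pip*, a secreted protein of exocrine glands, at 9.25 and 2.35 CPM against 1874 and 1342 CPM.

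C10 of gestation carried *Aldh1a3* and *Kit* as well but fewer milk transcripts. The mice differ between these stages and each stage was a set of libraries of its own, so that stage and library cannot be told apart. Genes were called here when at least 2-fold apart in their means with no overlap between the L and G mice, which held for 478 higher in C11 (8.62% of 5548 tested) and 931 lower (16.8%), 25.4% in all. With TMM these became 697 and 524, and with DESeq2 size factors 727 and 474, that is, 57.1% and 60.5% of calls were higher in place of 33.9%. *Aldh1a3*, at 379 CPM in G1 and 467 CPM in G2 in C10, and *Kit*, at 206 and 233 CPM, were not called. *Elf5* was higher in C11, with 256 and 208 CPM in C10. Of the 8 milk protein genes 7 were higher in C11, and of the 11 defence genes 10, with *Ltf* at 129 and 76.7 CPM in C10. *Csn2* stood at 1188 and 604 CPM in C10. The basal and contractile genes stood apart as much, with 15 of 17 higher in C11 (17 of 18 with TMM) and a median log2 difference of 4.86, beside 5.15 for the milk proteins. *Krt14* was at 33.7 and 69.3 CPM and *Acta2* at 88.0 and 122 CPM in C10. *Mt1* and *Mt2*, counted among the defence genes, were higher in C14 than in C11. The part of basal RNA in these differences was not tested.

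Genes of cell division divided the 2 progenitor clusters. All 16 that passed the filter were lower in C11 than in C10, beside 16.8% of all genes tested. Their median log2 difference was -2.30, beside -0.33 for all genes tested. Against C14 only 5 genes of the list passed, so the others did not reach the filter level in both C11 mice. Such genes entered by their C10 level and could not be called higher in C11. The count and the median are thus partly built in by the filter. The sum over all 18 listed genes used no filter. It was 400 CPM in L1 and 353 CPM in L2, against 1827 CPM in G1 and 1477 CPM in G2. *Mki67*, a nuclear protein of cycling cells, was at 21.3 CPM in L1 and 12.9 CPM in L2 against 119 CPM in G1 and 112 CPM in G2. *Top2a*, a topoisomerase of dividing cells, was at 19.4 and 30.6 CPM against 181 and 163 CPM. A UMI of either gene was found in 12 of 142 C11 cells in L1, or 8.45% (4.44 to 14.3), and 7 of 89 in L2, or 7.87% (3.22 to 15.5). In C10 the shares were 62.9% and 60.3%, at median depths of 9657 and 8870 UMIs, and in C14 they were 1.96% and 2.38%, at 3701 and 4148 UMIs. In C9 they were 9.52% (2.66 to 22.6) and 10.6% (3.55 to 23.1), at 11602 and 16271 UMIs, so that C11 did not stand above C9. These shares were not thinned. Over C11 cells *Mki67* and *Top2a* were related with r = 0.76 and 0.73. These values rest on few cells, since *Mki67* had no UMI in 133 of 142 and 85 of 89 cells. For *Top2a* this held for 135 and 83 cells. *Rspo1*, a secreted Wnt agonist, was the gene farthest below C10, at 3.70 and 1.18 CPM in C11 against 448 and 372 CPM.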

How the data were processed

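Per the labels and the study's methods, the authors sorted EpCAM+ cells with doublets gated out and made 10x Chromium 3' libraries. The submitters' processing notes name STAR and mm10, with versions not given in the sources used here. The deposited matrices hold counts, whole UMIs per gene and barcode. The deposited annotation holds the authors' clusters, quality flags and a mitochondrial fraction per cell, made by the authors. Barcodes shared between libraries (283 in L, 791 in all) were absent from the cells used, as the authors' flags left them out. The study excluded such barcodes to guard against index swapping. No doublet caller was run. The combined matrix was not used.

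Counts were summed per cluster and mouse and scaled to CPM. Levels under 3 UMIs were set at 3 UMIs in folds, and a call needed more than 3 UMIs in each mouse of the higher cluster. Genes were called at 20 CPM and 2-fold, as described with the results. Cells were thinned to 2000 UMIs with a fixed seed. Tools were Python 3.11.15, numpy 2.4.6, scipy 1.17.1, pandas 2.3.3, R 4.3.3, edgeR 4.0.16 and DESeq2 1.42.0, and the fits were tested on simulated data. L1 and L2 sums of 2 clusters came from the same mouse, so sums were paired by mouse (correlation of mouse deviations 0.18 for C14 and 0.091 for C9, over genes).

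Members and lists were chosen with earlier results of these data known. Of 270 listed genes 267 were in the files, and *Agpat6*, *Cebpd* and *Chi3l1* were not found under these symbols. Named genes were those of the lists, the 15 highest in C11, the genes at least 2 times any other of C1 to C15, and the 10 highest and 10 lowest in each comparison. Alternatives were TMM and DESeq2 scaling, totals without milk, other level filters, means over cells, other thinning, cells left out, each mouse left out, and edgeR and DESeq2 fits. Gene coordinates are from the GENCODE annotation of GRCm38, matched by Ensembl ID (320 of 320 genes), and promoter windows from RefSeq (GRCm38).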

Additional observations from a re-analysis of the deposited data

How the results depend on the processing

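No listed gene called against C14 (117) or C10 (103) changed direction with the other scalings, means over cells or C11 cells left out. Other level filters and leaving out 1 mouse could not reverse a call. Directions in the edgeR and DESeq2 fits were not compared. The counts of called genes moved more. Against C14, where 1831 genes were called, 2974 were called with no level filter and 646 at 100 CPM or more. edgeR with the replicate block (the mouse as a term, since both sums came from the same mouse) gave 5059 at 2-fold and 5646 at an adjusted p under 0.05. Without the block these were 5069 and 5078, and DESeq2 with the block called 3027. These fits tested 12522 genes and are no test of the clusters. Against C9, where 1326 were called, the count was 418 with TMM, 420 with DESeq2 size factors, 503 without milk UMIs and 371 at 100 CPM or more. The edgeR block fit called 868 at an adjusted p under 0.05, the fit without the block 489 and DESeq2 with the block 199. Leaving out 1 mouse gave 2149 to 2610, as a call then needs only the other mouse. Against C10 the count of 1409 became 2703 with no level filter and 401 at 100 CPM or more.

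The basal ratio to C14 of 12.9% was 10.8% as a mean over cells, 3.62% without the 25% of C11 cells with the highest basal share, and 4.04% without those at or above 1.5%, an alternative chosen after seeing the data. Against C9, 13 and 9 of the 15 basal genes called then changed direction, with *Acta2* at -0.44 and -0.27 and *Oxtr* at -0.17 and -0.032 on the log2 scale. The C11 cells left out were picked by these same genes, and no C9 cell was left out. A fall of these genes was thus built in, and the reversals are no separate result. The *Elf5* share of 68.2% was 45.4% at 1000 UMIs and 92.8% without thinning. With 2 mice and 231 cells, genes near 3 UMIs could not be ranked.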

Other observations

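The 2 mice agreed within 2-fold for most genes of C11. Of 2595 genes at 50 CPM or more in 1 mouse, 93 (3.58%) were at least 2-fold apart, 73 of them higher in L2 and 20 higher in L1. Among those higher in L2, *Csf3* (granulocyte colony-stimulating factor) stood at 16.7 CPM in L1 and 155 CPM in L2, *Lif* at 23.1 and 167 CPM, *Cxcl2* at 95.3 and 449 CPM, and *Ptgs2*, the inducible cyclooxygenase, at 101 and 371 CPM. *Lgals3* (galectin-3) was at 163 and 585 CPM. Higher in L1 were *G0s2*, an inhibitor of lipolysis, at 556 CPM against 187 CPM, and *Fabp4*, a fatty acid binding protein of adipocytes, at 75.9 CPM against 11.8 CPM. *Klk14* had 10.2 CPM in L1 and 102 CPM in L2, where 1 cell held 71.3% of its UMIs. These genes were chosen after their values were seen, and with 1 library per mouse, mouse and library cannot be told apart.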
